A study of Mus musculus with 14 samples.

Results

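The clustered protocadherins are the cell-adhesion genes of the Pcdha, Pcdhb and Pcdhg clusters, which lie in a row on one mouse chromosome. Members were chosen by their gene symbols alone, and 59 of the 23412 genes in the deposited table matched. They comprise 15 alpha rows (Pcdha1 to Pcdha12, Pcdhac1, Pcdhac2 and an extra row, Pcdha4-g), 22 beta genes and 22 gamma genes. The gamma genes divide into 12 of subfamily A, 7 of subfamily B and 3 C-type genes. The tissue was cerebral cortex, from mice labelled Rpl22flox/flox;CamKCre+ (control) or Fmr1X-Y; Rpl22flox/flox;CamKCre+ (Fmr1 knock-out, KO). Fmr1 encodes FMRP, an RNA-binding protein. Both groups thus carried a floxed Rpl22 allele and a CamK-driven Cre, so no mouse was a plain wild type. The labels used here give no age. Total RNA was sequenced from 4 control (1, 3, 6, 8) and 4 KO mice (2, 4, 5, 7). Ribosome profiling reads the mRNA fragments (footprints) protected by ribosomes during nuclease digestion, and was done on 3 control (1, 3, 9) and 3 KO animals (2, 4, 10).

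Each clustered protocadherin is a single-pass membrane protein with cadherin repeats outside the cell, which bind the same isoform on a neighbouring cell. A neuron expresses a small set of alternate isoforms, each from its own promoter. Most C-type isoforms are expressed more broadly, and the resulting isoform code lets a neuron tell its own branches from those of other neurons. In the alpha and gamma clusters, each variable exon with its own promoter is spliced to a set of constant exons that all members of that cluster share and that encode a common cytoplasmic tail. Beta genes have a single exon and lack that tail. A read from a constant exon therefore cannot be given to one alpha or gamma isoform.

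The table held a pair of columns for each RNA library, and these were compared to see how reads of these genes entered the counts. The exon columns held more reads than the other RNA columns for most genes, with a median ratio of 1.53 over 13236 genes with at least 100 reads. In the alpha cluster the columns held exactly the same number of reads for 12 of 13 members of that depth, a match found in 1.11% of all genes. The gamma cluster had 9 of 22 members with equal numbers, and its highest ratio was 1.09. In the beta cluster the exon columns held 1.31 times as many reads in the median, with equal numbers for Pcdhb6 and Pcdhb8 and a ratio of up to 2.16 for Pcdhb16. Whether reads in the constant exons were dropped, or counted for some members, is not given in the sources used here. They were not counted in full for every alpha member, since each RNA library had 24 to 58 reads for Pcdha1 and 890 to 1069 for Pcdhac2. How far the value of a single alpha or gamma member holds reads of constant exons could not be told, and sums over a cluster are sums of these counts.

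**Figure D1:**
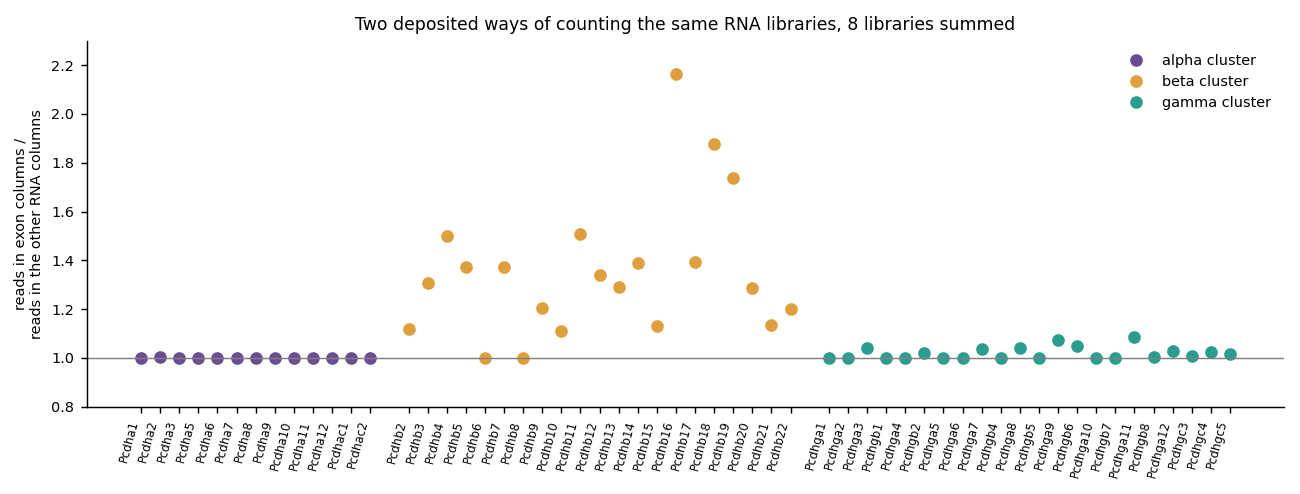
Reads in the exon columns divided by reads in the other RNA columns for each member with at least 100 reads, with the 8 RNA libraries summed. Alpha members lie on the line at 1, gamma members lie at it or close to it, up to 1.09, and most beta members lie well above it, up to 2.16.

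Library totals were 8847547 to 11371851 reads in RNA and 4124065 to 6033030 in footprints. All levels are CPM, counts normalised for sequencing depth by TMM, and are not divided by length. As a check of the labels, Fmr1 RNA averaged 82.9 ± 8.36 CPM for controls against 21.7 ± 2.40 for KO mice (SD, n = 4 each), and its footprints 113 ± 1.99 against 7.44 ± 1.43 CPM (SD, n = 3 each). KO RNA libraries 2, 4 and 7 resembled each other closely. Over the 56 members tested, their paired counts differed by a chi-square of 0.758 to 0.990 per degree of freedom, which is within counting noise, while over all genes it was 1.18 to 1.32. They were kept as 3 samples, and a fit with them summed is given beside the RNA result. Footprint libraries of a group were about as close, at 0.881 to 1.44 over the members and 1.15 to 1.42 over all genes, and no summed fit was made for them. KO RNA library 5 stood apart from those 3, with a chi-square of 2.25 to 2.51 per degree of freedom over the members. Over all genes library 5 was at 5.64 to 6.02 against those 3. Control RNA library 8 stood further apart from controls 1 and 3 over all genes, at 10.6 and 11.8, but was at 4.03 against control 6. Over the members library 8 was at 1.14 to 1.93 against the other controls. Without it 1763 genes were called in RNA in place of 1001. Each library's label carries a mouse number, by which the samples of a group were taken as separate mice. Cortical markers were present in every library. Markers of the hypothalamus summed to 39.4 to 74.1 CPM in control RNA and 20.2 to 24.0 CPM in KO RNA, and to 110 to 118 against 41.5 to 48.0 CPM in footprints; 4 of 5 tested were called lower in RNA and 5 of 5 in footprints. Markers of excitatory neurons summed to 2048 to 2328 CPM in control RNA and 2631 to 2926 CPM in KO RNA, with 2 of 5 called higher. Excitatory footprints summed to 4380 to 4486 against 4127 to 4253 CPM, with Camk2a called lower at 3156 against 2860 CPM and 2 of 5 markers called higher. Sums without overlap were also found for oligodendrocyte markers in RNA (4307 to 4791 against 3707 to 4068 CPM), and in footprints for astrocyte markers (1631 to 1674 against 1516 to 1535 CPM), inhibitory neuron markers (1621 to 1667 against 1694 to 1721 CPM), endothelial markers (152 to 158 against 141 to 150 CPM) and choroid plexus markers (5.19 to 8.51 against 3.08 to 5.15 CPM). The part of these shifts in the results below was not tested.

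Counts differed between members of a cluster, and only the beta genes could be compared per length, with the exon columns and RefSeq transcript lengths (assembly GRCm38.p6, while the submitters' processing notes name both mm9 and mm10). Among the beta genes in control RNA, Pcdhb17 reached 7.33 ± 0.236 CPM per kb (SD, n = 4) and Pcdhb20 reached 6.64 ± 0.484. The next was Pcdhb9 at 5.05 ± 0.412, and Pcdhb22 at 4.83 ± 0.475 did not differ from it beyond their spread. The genes at the start of the cluster were lower, with Pcdhb2, Pcdhb3, Pcdhb4 and Pcdhb5 between 1.35 and 1.76 CPM per kb. Pcdhb1, the first gene, was at 0.104 ± 0.0612 CPM per kb. Pcdhb6 and Pcdhb8, whose columns held equal reads, are left out of this order because the region counted is not given.

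Not every member could be tested. Of the 59, 56 passed the filter on low counts in RNA and 54 in footprints. Pcdhb1 was in neither, at 0.0871 to 0.774 CPM in RNA. Pcdha4 and Pcdha4-g were at 0 in all 14 libraries of the columns used (the exon columns held 3 Pcdha4 reads in all), where 3 counts would be 0.261 to 0.349 CPM in RNA and 0.509 to 0.712 CPM in footprints. Near-identical neighbours can lose reads that match more than one place, so a 0 here was a count of 0 and not a measured absence. Pcdha8 and Pcdhgb8, a transcribed pseudogene in RefSeq, passed in RNA only. Pcdha8 was at 1.52 ± 0.315 CPM in control and 1.33 ± 0.290 CPM in KO RNA (SD, n = 4 each), and Pcdhgb8 was at 1.81 ± 0.300 and 2.61 ± 0.759 CPM.

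Footprint density was taken as footprint CPM divided by RNA CPM of the same gene, in which length cancels where both assays count the same region. Over 12145 genes the control median was 0.912. All 21 gamma members tested in both assays lay above it, with a median of 1.67. Alpha members had a median of 1.25, with 11 of 12 above the median of all genes. Beta members had a median of 0.921, with 11 of 21 above. The 3 clusters thus differed in footprints per RNA while their members overlapped, and no test was made over members that share exons.

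Of the 5 C-type genes, 3 lay at an end of their cluster's range. Pcdhgc5, the last gene of the gamma cluster, had the highest control ratio of any member, 2.54, above 96.8% of all genes. It was 2.62 in control mouse 1, 2.57 in control mouse 3, 2.41 in KO mouse 2 and 2.49 in KO mouse 4. Pcdhgc3 had the lowest gamma ratio, 0.940, and Pcdhac2 had the lowest alpha ratio, 0.620. Pcdhac2 was at 0.621, 0.590, 0.621 and 0.669 in mice 1, 3, 2 and 4. In each of the 4 mice Pcdhac2 lay far below Pcdhgc5. Among alternate isoforms, Pcdhga12 was at 2.09 and Pcdha12 at 1.87 in controls. These are the alternate genes nearest to the C-type genes of their clusters. The lowest beta ratio was that of Pcdhb11, 0.580, and the highest that of Pcdhb14, 1.63.

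**Figure D2:**
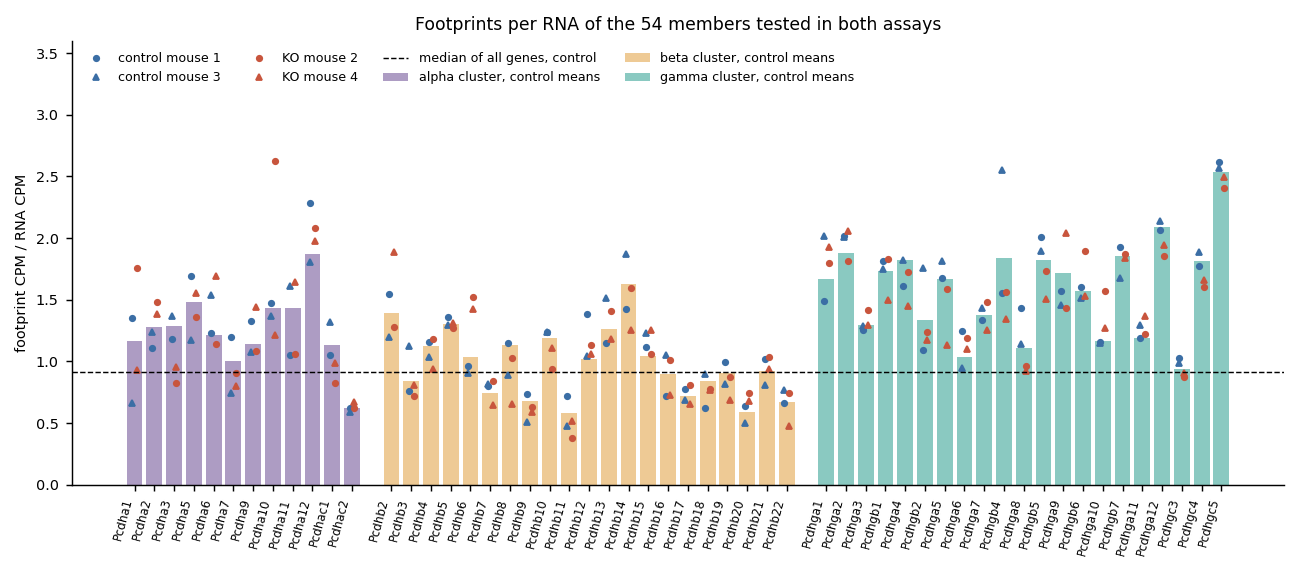
Footprint CPM divided by RNA CPM of the 54 members tested in both assays. Bars are ratios of the control means, points are the 4 mice with both assays, and the dashed line is the control median of all genes, 0.912; all gamma bars lie above the line, and Pcdhgc5 is the highest bar at 2.54.

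The RNA comparison asks whether mRNA levels of the members differed between genotypes. In KO cortex 6 members rose and none fell at an adjusted p under 0.05 (edgeR quasi-likelihood test, Benjamini-Hochberg over 13507 genes). They were Pcdhac1, Pcdha6 and Pcdha5 of the alpha cluster, Pcdhga8 and Pcdhga7 of the gamma cluster, and Pcdhb13. The 6 called members were 10.7% of the 56 tested, beside 7.41% of all genes; 3.53% of all genes were called higher and 3.88% lower. Bulk libraries cannot tell fewer cells that express a gene from less RNA per cell. The median log2 fold change (KO over control) was 0.22 in the alpha cluster with 10 of 13 positive, 0.02 in the beta cluster with 11 of 21 positive, and 0.04 in the gamma cluster with 14 of 22 positive. Over all genes tested it was -0.0012, with 49.8% positive.

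Pcdhac1, the first C-type alpha gene, was at 8.06, 8.50, 9.18 and 8.18 CPM in RNA of control mice 1, 3, 6 and 8. In KO mice 2, 4, 5 and 7 it was at 13.3, 10.5, 14.99 and 12.7 CPM. Every KO library lay above every control library, and KO mouse 5 was highest. The log2 fold change was 0.59 ± 0.12 (SE, adjusted p = 0.0119 by edgeR), or 1.51-fold.

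Pcdha6, an alternate alpha isoform, was at 8.06, 6.84, 8.52 and 8.28 CPM in control RNA and at 11.4, 10.4, 13.5 and 11.8 CPM in KO RNA, in the same mouse order. The groups did not overlap, and the log2 fold change was 0.56 ± 0.12 (SE, edgeR adjusted p = 0.0129). Its neighbour Pcdha5 was at 11.3, 13.9, 9.62 and 11.7 CPM in controls against 15.3, 15.6, 19.4 and 14.7 CPM in KO mice. Control mouse 3 came close to KO mouse 7 for Pcdha5, without overlap, and the log2 fold change was 0.48 ± 0.12 (SE, edgeR adjusted p = 0.0329).

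Pcdhga8, an alternate gamma A isoform, was at 15.8, 17.2, 18.3 and 23.5 CPM in RNA of control mice 1, 3, 6 and 8. In KO mice it was at 24.8, 26.1, 24.1 and 24.3 CPM, and control mouse 8 lay just below the KO range. The log2 fold change was 0.41 ± 0.11 (SE, edgeR adjusted p = 0.0339). Pcdhga7, its neighbour in subfamily A, was at 19.7, 17.8, 18.8 and 20.8 CPM in controls against 22.8, 24.3, 23.9 and 25.8 CPM in KO mice. These values were separated by genotype, and the log2 fold change was 0.33 ± 0.08 (SE, edgeR adjusted p = 0.0262). Pcdhb13 was the single beta gene called, at 11.1, 9.95, 10.1 and 12.5 CPM in controls against 13.96, 14.2, 14.99 and 13.2 CPM in KO mice. Its log2 fold change was 0.37 ± 0.11 (SE, edgeR adjusted p = 0.0479), the call nearest to the threshold. This call was lost in 12 of 18 alternatives, among them DESeq2, the title prefix as a replicate block and 7 of the 8 fits without 1 mouse.

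The other C-type genes were not called in RNA. Pcdhac2 RNA averaged 98.5 ± 2.40 CPM without and 96.3 ± 6.93 CPM with the knock-out (SD, n = 4 each), with a log2 fold change of -0.03 ± 0.06 (SE). Pcdhgc5 RNA was at 242, 237, 245 and 264 CPM in controls against 218, 208, 229 and 221 CPM in KO mice. No KO library reached the lowest control library for Pcdhgc5, but the log2 fold change of -0.17 ± 0.05 (SE) missed the threshold (edgeR adjusted p = 0.0648). It passed with DESeq2 (adjusted p = 0.0454), and with edgeR without mouse 5 (adjusted p = 0.0359) and in mice 1 to 4 alone (adjusted p = 0.00813). Pcdhgc3 and Pcdhgc4 had log2 fold changes of 0.07 and -0.08, and their groups overlapped. In mice 1 to 4 alone, Pcdhgc3 was called higher at 0.14 (edgeR adjusted p = 0.0448).

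Without regard to the test, 11 of 56 members (19.6%) had RNA libraries that did not overlap between genotypes, beside 15.1% of all genes. Of these, 8 were higher in KO mice, the 6 called members with Pcdhgb5 and Pcdhga10, and 3 were lower, Pcdhga3, Pcdhga5 and Pcdhgc5. The largest change in the RNA of any member was that of Pcdha1, with a log2 fold change of 0.68 ± 0.21 (SE, edgeR adjusted p = 0.0597) from 24 to 58 reads per library. It was called with the exon columns (0.70, adjusted p = 0.047) and without mouse 2 (0.81, adjusted p = 0.0483).

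The RNA calls depended on which libraries were included or summed. All 6 were lost when KO libraries 2, 4 and 7 were summed to 1 library and control libraries 1 and 3 to another, and likewise when only KO libraries 2, 4 and 7 were summed, an alternative chosen after seeing the data. They were also lost within mice 5 to 8 alone. These 3 fits called 36, 79 and 88 genes in the whole table, beside 1001, so few calls were left for any gene. Mice 1 to 4 alone gave 3273 called genes, among them 6 members called higher (Pcdhgc3 in place of Pcdha5) and 2 lower, Pcdhga1 and Pcdhgc5. Lower calls also came without mouse 5 (Pcdhga1 and Pcdhgc5), without mouse 8 (Pcdhga3) and with DESeq2 (Pcdhgc5). The log2 fold changes of the 6 stayed positive under every alternative tried, at 0.50 to 0.62 for Pcdha6, 0.52 to 0.69 for Pcdhac1, 0.31 to 0.67 for Pcdha5, 0.21 to 0.63 for Pcdhga8, 0.32 to 0.44 for Pcdhb13 and 0.29 to 0.37 for Pcdhga7. Pcdhga8 and Pcdhga7 each lost their call in 9 of 18 alternatives, whereas Pcdha6 and Pcdhac1 were called after leaving out any 1 of the 8 mice. KO mouse 5 was the highest of the 8 RNA libraries for 11 of 13 alpha members, and the alpha median was 0.11 without it, with 9 of 13 positive. Leaving out mouse 1, 2, 3, 4, 6 or 7 left 2 or 3 called members.

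**Figure D3:**
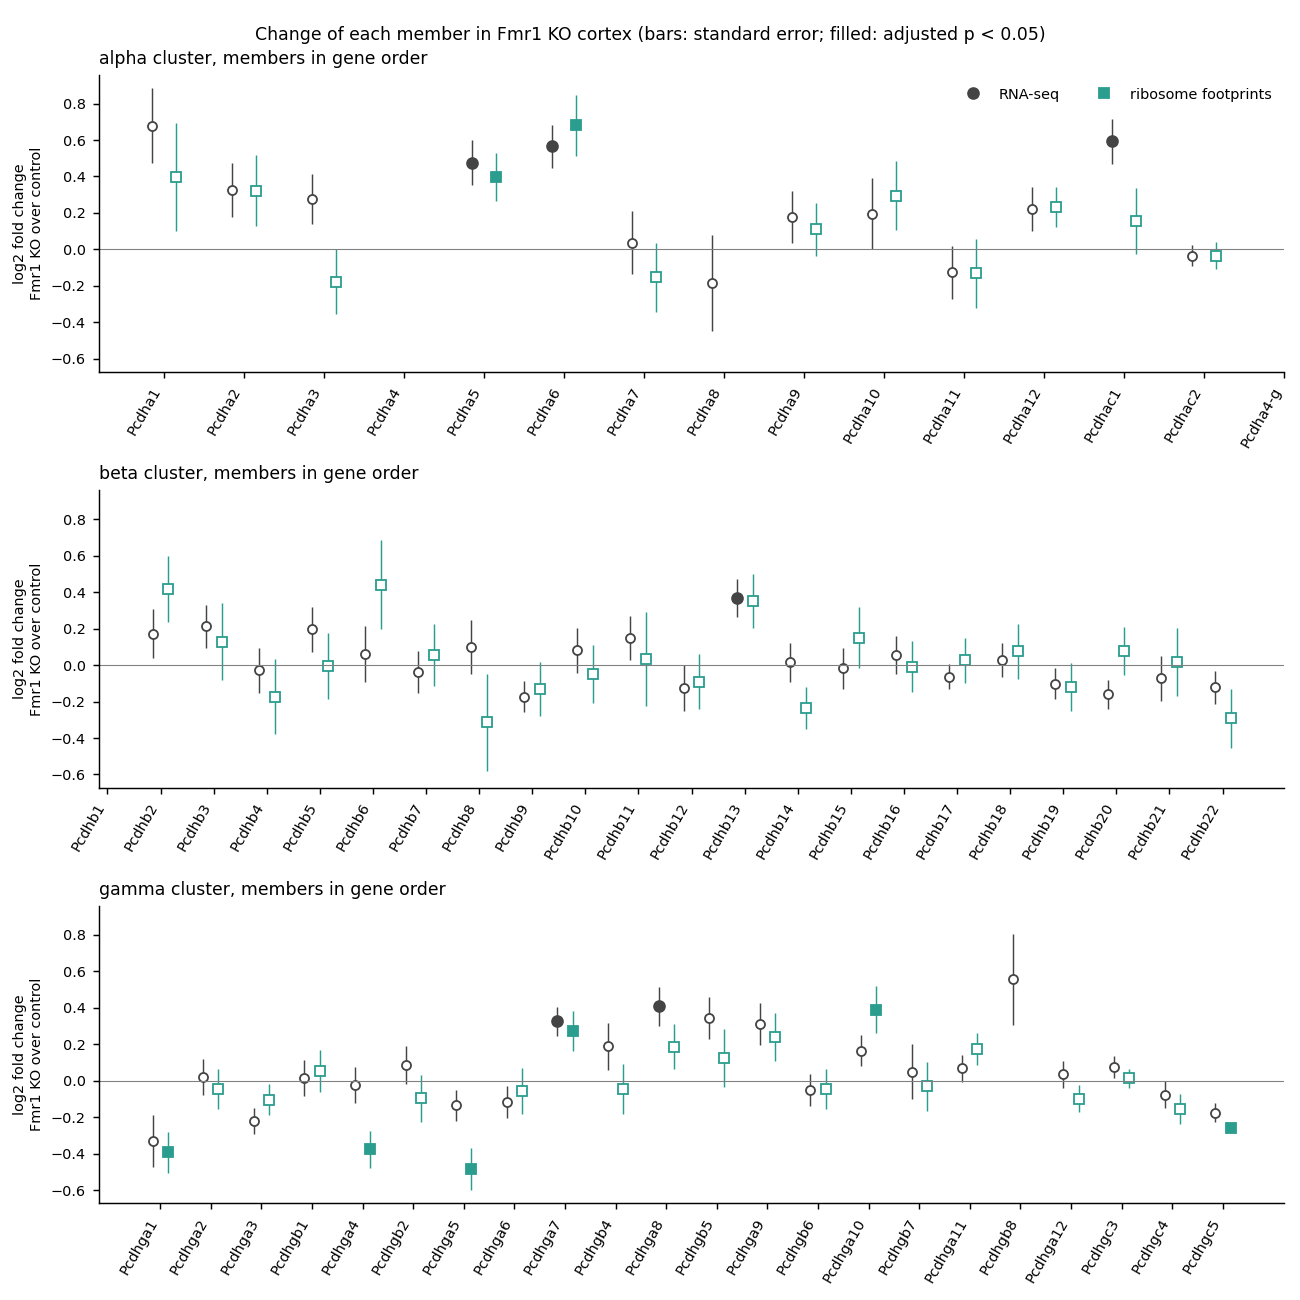
Log2 fold change (KO over control) of each member, in the order of the genes along each cluster, in RNA-seq (circles) and footprints (squares), with standard errors; filled symbols have an adjusted p under 0.05, and untested members have no symbol. Filled circles are all above 0, whereas filled squares lie on both sides of 0 in the gamma cluster. Pcdha4-g, which has no place in the RefSeq order, is drawn last.

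Footprints were compared between genotypes in the same way. Pcdhgc5, the gamma member with the most footprints, fell to 0.835-fold in KO cortex, and the alternate isoforms Pcdhga5, Pcdhga1 and Pcdhga4 fell as well, while Pcdha6, Pcdha5, Pcdhga10 and Pcdhga7 rose. These 8 of 54 members tested were 14.8%, beside 25.5% of the 12158 genes tested, so the share was below that of all genes. Over all genes 11.9% were called higher and 13.6% lower. Groups did not overlap for 13 of 54 members (24.1%), beside 37.3% of all genes. The median log2 fold change was 0.19 in the alpha cluster with 8 of 12 positive, 0.02 in the beta cluster with 11 of 21 positive, and -0.05 in the gamma cluster with 8 of 21 positive. Over all genes tested it was 0.01. No beta gene was called, and 3 of the 21 had an unadjusted p under 0.05. Beta calls came with plain library sizes (Pcdhb13 at 0.41 and Pcdhb2 at 0.48) and without mouse 2 (Pcdhb22 at -0.49). With plain library sizes in place of TMM the gamma median was 0.01, and 8 members were called higher and 4 lower. That scaling moved the median of all genes by 0.06 and the share of all calls that were higher from 46.7% to 66.3%.

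Pcdhgc5 footprints were at 633, 608 and 640 CPM in control mice 1, 3 and 9 and at 524, 519 and 526 CPM in KO mice 2, 4 and 10. The groups lay far apart beside the spread within each. The log2 fold change was -0.26 ± 0.03 (SE, edgeR adjusted p = 8.48e-13), beside -0.17 in RNA. In the fit over all 14 libraries the footprint change was -0.27, with a larger edgeR adjusted p of 0.00144. The other C-type genes were not called in footprints. Pcdhgc3 was at 129 ± 3.34 and 130 ± 4.84 CPM, Pcdhgc4 at 61.9 ± 2.38 and 55.5 ± 8.80 CPM, and Pcdhac2 at 61.1 ± 1.34 and 59.5 ± 3.37 CPM, in control and KO mice (SD, n = 3 each). Without mouse 10 Pcdhgc4 was called lower, at -0.30 in place of -0.15 (edgeR adjusted p = 0.00981). Pcdhac1, called in RNA, had a footprint log2 fold change of 0.15 ± 0.18 (SE, edgeR adjusted p = 0.583).

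The gamma A isoforms that fell in footprints lie in the first part of the cluster, a grouping made after the values were seen. Pcdhga2, Pcdhga3, Pcdhga6, Pcdhgb1 and Pcdhgb2 lie there too and were not called, with log2 fold changes of -0.10 to 0.05. Pcdhga5 was at 30.9, 32.6 and 28.2 CPM in control mice 1, 3 and 9 and at 24.2, 20.2 and 21.4 CPM in KO mice 2, 4 and 10. The groups were well apart, and the log2 fold change was -0.48 ± 0.12 (SE, edgeR adjusted p = 0.00062). Pcdhga1, the first gene, was at 27.6, 34.1 and 30.8 CPM in controls against 25.1, 23.3 and 22.8 CPM in KO mice, a log2 fold change of -0.39 ± 0.11 (SE, edgeR adjusted p = 0.00512). Pcdhga4 was at 36.1, 38.7 and 41.6 CPM in controls against 34.6, 29.1 and 26.8 CPM in KO mice, a log2 fold change of -0.38 ± 0.10 (SE, edgeR adjusted p = 0.00275). For Pcdhga4, KO mouse 2 lay close to the control range, and without KO mouse 10 the edgeR adjusted p was 0.0532. Pcdhga1 lost its call in 3 of 12 alternatives, with DESeq2, without mouse 3 and in the fit over all 14 libraries, at adjusted p values of up to 0.0915. None of Pcdhga5, Pcdhga1 and Pcdhga4 was called in RNA, where their log2 fold changes were -0.13, -0.33 and -0.03. Pcdhga1 RNA was called lower without mouse 5, at -0.51 (edgeR adjusted p = 0.00771). It was also called in mice 1 to 4 alone, at -0.44 (edgeR adjusted p = 0.0119).

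The isoforms that rose in footprints were alternate ones. Pcdha6 was at 9.91, 10.5 and 8.51 CPM in control mice 1, 3 and 9 and at 13.0, 17.7 and 15.5 CPM in KO mice 2, 4 and 10, a log2 fold change of 0.68 ± 0.17 (SE, edgeR adjusted p = 0.000843). Pcdha5 was at 19.1, 16.3 and 16.1 CPM and at 20.9, 24.2 and 22.2 CPM, a log2 fold change of 0.40 ± 0.13 (SE, edgeR adjusted p = 0.0161). Pcdha6 and Pcdha5 were thus called higher in both assays, and Pcdhga7 was as well. Pcdhga7 footprints were at 26.4, 25.6 and 27.6 CPM in controls against 33.9, 30.5 and 32.0 CPM in KO mice, a log2 fold change of 0.27 ± 0.11 (SE, edgeR adjusted p = 0.0493). Pcdhga10 was at 17.5, 18.5 and 19.3 CPM in controls against 28.0, 23.5 and 21.6 CPM in KO mice, a log2 fold change of 0.39 ± 0.13 (SE, edgeR adjusted p = 0.0148). Control and KO libraries of all 4 genes were apart, but the footprint call of Pcdhga7 held in 3 of 12 alternatives, that of Pcdha5 in 7 and that of Pcdhga10 in 10. Pcdhga10 was not called without mouse 2, Pcdha5 not without mouse 3, 4 or 9, and Pcdhga7 not without any 1 of the 6 mice. The RNA call of Pcdha5 held in 8 of 18 alternatives.

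**Figure D4:**
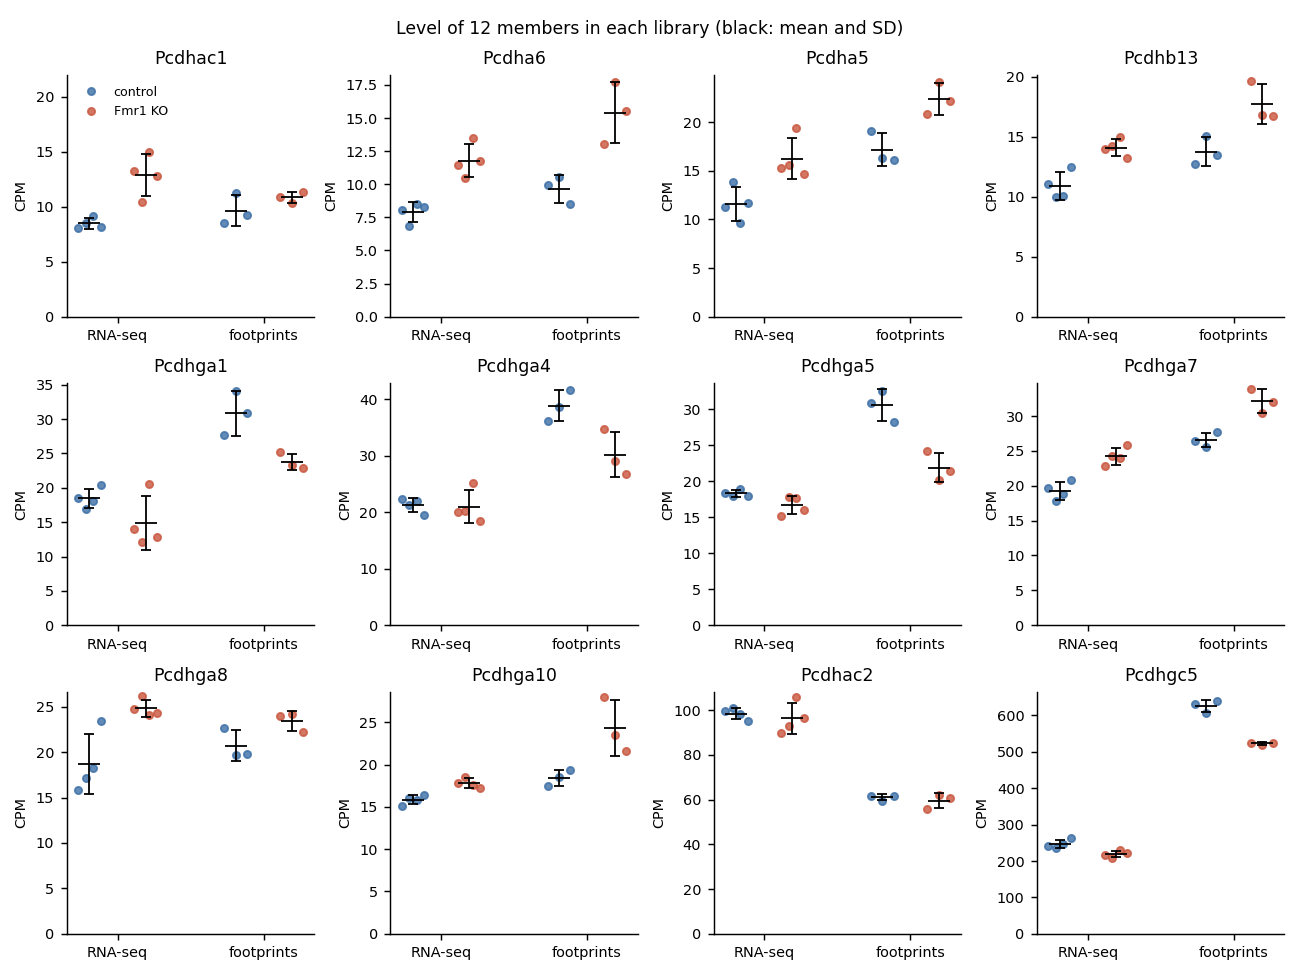
CPM of 12 members in each library, controls in blue and KO mice in red, with the mean and SD in black (4 mice a group in RNA-seq, 3 in footprints; each axis starts at 0). Pcdhgc5 footprints lie at 608 to 640 CPM for controls and 519 to 526 CPM for KO mice, whereas Pcdhac2 overlaps in both assays.

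The balance between isoforms within a cluster was described by sums and shares of counts. Alpha members other than Pcdhac2 summed to 95.3, 104, 98.7 and 92.6 CPM in RNA of control mice 1, 3, 6 and 8 and to 111, 112, 148 and 111 CPM in KO mice 2, 4, 5 and 7. All KO values lay above the controls, and mouse 5 lay far above the other KO mice. In footprints the same sum was 132, 131 and 126 CPM in control mice 1, 3 and 9 and 143, 153 and 151 CPM in KO mice 2, 4 and 10. With Pcdhac2 included, the alpha sum overlapped in RNA, at 188 to 205 CPM in controls and 201 to 254 CPM in KO mice. In footprints it did not overlap, at 188 to 194 CPM in controls and 199 to 216 CPM in KO mice. Pcdhac2 made up 49.2% to 51.1% of alpha RNA counts in controls and 41.7% to 46.5% in KO mice, and 31.3% to 33.0% and 28.1% to 28.9% of alpha footprints. In both assays the 95% Wilson intervals of some single libraries overlapped between the groups. In RNA the interval was 47.0% to 51.4% in control mouse 3 and 44.4% to 48.6% in KO mouse 7. In footprints it was 28.8% to 35.1% in control mouse 1 and 26.1% to 31.8% in KO mouse 4.

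Pcdhgc5 made up 31.8% to 33.4% of gamma RNA counts in controls and 28.4% to 30.1% in KO mice. Its share of gamma footprints was 45.4% to 47.7% in controls and 42.7% to 43.2% in KO mice. Wilson intervals of some single libraries overlapped in both assays. In RNA the interval was 30.7% to 32.9% in control mouse 6 and 29.0% to 31.1% in KO mouse 7. In footprints it was 44.3% to 46.5% in control mouse 3 and 41.9% to 44.5% in KO mouse 4. The share of Pcdhgc3 was 9.29% to 9.77% of gamma footprints in controls and 10.3% to 11.0% in KO mice, with overlapping CPM of Pcdhgc3 itself. Some of its intervals overlapped as well, as at 9.02% to 10.6% in control mouse 1 and 9.52% to 11.2% in KO mouse 2. The gamma sum was 1338 ± 4.63 CPM in control and 1218 ± 13.8 CPM in KO footprints (SD, n = 3 each), and 762 ± 24.2 and 750 ± 26.9 CPM in RNA (SD, n = 4 each). The beta sum was 280 ± 2.69 CPM in control and 280 ± 16.4 CPM in KO footprints, and 311 ± 3.09 and 308 ± 3.796 CPM in RNA. Genotypes thus overlapped for the beta sum in both assays and for the gamma sum in RNA, but not for the gamma sum in footprints. Gamma footprints without the C-type genes did overlap, at 510 to 539 CPM for controls and 497 to 527 CPM for KO mice.

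**Figure D5:**
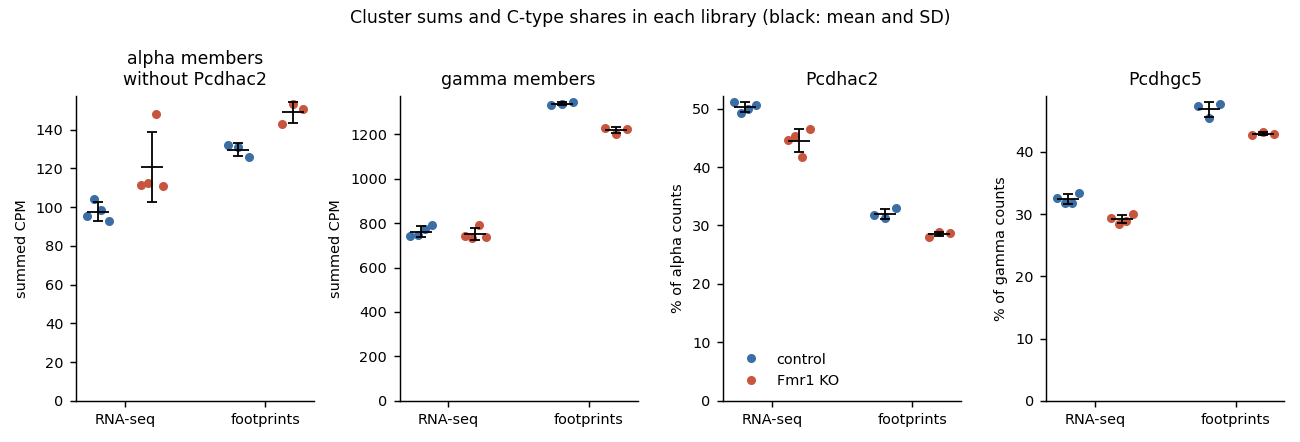
Summed CPM of the alpha members without Pcdhac2 and of the gamma members, and the shares of Pcdhac2 in alpha counts and of Pcdhgc5 in gamma counts, in each library with mean and SD in black (axes start at 0). KO mouse 5 is the single high RNA point of the alpha sum at 148 CPM, and both shares are lower in every KO library than in every control library.

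Translational efficiency, that is footprints relative to RNA, was compared between genotypes as an interaction over all 14 libraries. No member of 54 was called (edgeR quasi-likelihood test), beside 7.81% of the 12145 genes tested. DESeq2 and limma voom also called 0, and 3 members had an unadjusted p under 0.05 with edgeR, namely Pcdhac1, Pcdhga5 and Pcdhga4. The largest log2 changes were -0.46 ± 0.23 for Pcdha3, -0.44 ± 0.21 for Pcdhac1, -0.42 ± 0.29 for Pcdhb8, 0.37 ± 0.25 for Pcdhb6, -0.36 ± 0.14 for Pcdhga5 and -0.35 ± 0.15 for Pcdhga4 (SE). For Pcdhgc5 the log2 change was -0.09 ± 0.07 (SE, edgeR adjusted p = 0.448). The median over the members was -0.07, with 35 of 54 negative, and over all genes -0.01, with 6288 of 12145 negative. Plain library sizes moved the median of all genes by 0.06, about as much as the members' median, and took the positive alpha members from 3 to 6 of 12. Since RNA and footprint changes have each their own error, a footprint call without an RNA call, as for Pcdhga5, did not by itself show a change in translational efficiency.

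The genes around this family were taken from 3 lists. The list on promoter choice and cohesin holds cohesin genes and genes known for activating or silencing protocadherin promoters. Ctcf binds there and anchors DNA loops, which the cohesin ring forms, and Smchd1 is a silencing factor. In RNA, 1 of 14 tested was called, beside 7.41% of all genes: Wiz rose by 0.40. In footprints 8 of 13 fell and 1 rose, beside 13.6% and 11.9% of all genes. Wiz fell by 0.27 and Smc1a, a ring subunit, fell by 0.24 on the log2 scale, while Stag2, another cohesin subunit, rose by 0.26. In translational efficiency 2 of 13 were called, beside 7.81% of all genes: Wiz fell by 0.68 and Nipbl, the cohesin loader, by 0.41. The medians were 0.03 in RNA and -0.19 in footprints.

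Partners in shedding and signalling comprised 16 genes, such as the protease Adam10 and members of the WAVE complex, which drives actin branching. In RNA 1 of 16 was called, beside 7.41% of all genes: the GTPase gene Rac1 rose by 0.32. In footprints 4 fell and 2 rose, beside 13.6% and 11.9% of all genes. The kinase gene Fyn fell by 0.25, Abi1 by 0.24 and Wasf1 by 0.18, the latter both of the WAVE complex. Another subunit gene of that complex, Nckap1, rose by 0.07, and Cyfip1, Cyfip2, Abi2 and Brk1 were not called, so its genes had no common direction. In translational efficiency 2 of 16 were called, beside 7.81% of all genes: Wasf1 fell by 0.47 and Rac1 by 0.29.

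The protocadherins outside the clusters, which have genes of their own and no shared constant exons, were lower in KO footprints. Of 11 tested, 8 fell and 0 rose, beside 13.6% and 11.9% of all genes (3 members were not called and all 11 log2 fold changes were negative), with a median of -0.22, beside -0.05 for the gamma cluster and 0.19 for the alpha cluster. The difference between the lists was not tested. Pcdh18 fell by 0.38, Pcdh8 by 0.36 and Pcdh19, the gene of an X-linked epilepsy, by 0.35. In RNA 1 of 12 was called, beside 7.41% of all genes: Pcdh20 fell by 0.36. In translational efficiency 1 of 11 was called, beside 7.81% of all genes: Pcdh1 fell by 0.32.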

How the data were processed

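The authors' deposited table gives raw counts per gene for the RNA-seq and ribosome profiling libraries, not normalized. Per the submitters' processing notes, Bowtie2, STAR 2.5, featureCounts and Subread 1.4.6 were used with builds mm9 and mm10; the region counted, the strand setting and the treatment of reads that match several places are not given in the sources used here. RNA columns without a suffix, which hold 52.9% to 56.7% of the exon columns' reads, were used, since they list the genes that the footprint columns list. The RefSeq table (GRCm38.p6) matched 58 of 59 members by symbol and gave gene order and beta transcript lengths.

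Counts were tested between genotypes with edgeR 4.0.16 in R 4.3.3 (quasi-likelihood F test, TMM, filterByExpr with a minimum count of 10, group means). Translational efficiency was the interaction of assay and genotype over 14 libraries. Tests were two-sided, p-values were adjusted by Benjamini-Hochberg over each whole table, and called means an adjusted p under 0.05. Standard errors were derived from the F statistic. Scripts were tested on simulated data. Alternatives were DESeq2 1.42.0, limma 3.58.1 (voom), other scaling, no filter, exon columns, blocks, summed libraries and leaving out each mouse.

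The members and gene lists were chosen with earlier results of these data known. Named genes were the 5 C-type members, members called, members with the largest changes up to 6 where fewer were called (mean of at least 1 CPM), the highest and lowest member of each cluster, Fmr1 and at most 3 called genes per list and comparison. Other members were named after their values were seen. Shares have Wilson intervals at 95%, and a count of 0 was taken to allow 3 counts. Both cover counting error only, since PCR copies are not independent molecules. Mice 1 to 4 were in both assays by their labels, and the deviations of their RNA and footprints from the group means correlated at -0.012 to 0.035 over 12145 genes. P-values measure the spread between these samples.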

Additional observations from a re-analysis of the deposited data

Results flagged for a closer look

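In RNA, 4 values lay far from the other 3 samples of their group, in 68 groups of 4 RNA samples examined (members named, cluster sums and C-type shares). Chance flags about 1 in 20, or 3.4 of 68. In KO mouse 5 the summed RNA of all members was 1351 CPM against 1246 to 1254 CPM in the other KO mice, that of the alpha cluster 254 CPM against 201 to 208 CPM, and that of the alpha members without Pcdhac2 148 CPM against 111 to 112 CPM. These 3 sums hold the same alpha reads. In control mouse 1 Pcdha3 RNA was at 11.4 CPM against 8.07 to 8.48 CPM in the other controls.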

How the results depend on the processing

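The count of 6 members called in RNA was 0 with KO RNA libraries 2, 4 and 7 and control libraries 1 and 3 summed, 0 with only the former summed (chosen after seeing the data) and 0 in mice 5 to 8 alone, fits that called 36, 79 and 88 genes in all beside 1001. It was 2 to 7 with 1 mouse left out. The count of 8 in footprints was 4 with DESeq2 and 5 in a fit over all 14 libraries, which called 1821 and 1684 genes beside 3102. Pcdha6, Pcdhga5 and Pcdhgc5 kept their footprint calls in all 12 alternatives. With the title prefix as a replicate block, 5 members were called in RNA and 8 in footprints. With the mouse number as a replicate block, paired over mice 1 to 4, 0 were called in translational efficiency. Values near 0 changed sign: Pcdhac2 in RNA was 0.018 with both sets summed, 0.012 with the KO set summed and 0.064 in mice 5 to 8, and in footprints 0.026 with plain library sizes. With 1 mouse left out, its footprint value ran from -0.066 to 0.0088 and that of Pcdhgc3 from -0.021 to 0.029. Translational efficiency of Pcdhac2 was 0.057 with plain library sizes, 0.035 with voom, 0.08199 with the block over mice 1 to 4 and 0.08195 without it, and -0.056 to 0.041 with 1 mouse left out. The cause was not tested. Depth limits the low members, of which Pcdha1 had 24 to 58 RNA reads.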

Other observations

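Among the alternate gamma isoforms, the stretch from Pcdhga7 on had more positive log2 fold changes than the stretch before it. This is given without a test, since the split at Pcdhga7 was chosen after the values were seen. The 3 C-type genes at the end of the cluster are left out; Pcdhgc4 was at -0.08 in RNA and -0.15 in footprints and Pcdhgc5 at -0.17 and -0.26. Of all genes, 49.8% were positive in RNA and 50.9% in footprints. The 8 members from Pcdhga1 to Pcdhga6 had a median log2 fold change of -0.07 in RNA, with 5 negative, and -0.10 in footprints, with 7 negative. The members from Pcdhga7 to Pcdhga12 had a median of 0.19 in RNA, with 10 of 11 positive, and 0.15 in footprints, with 6 of 10 positive; the 4 others were Pcdhgb4, Pcdhgb6, Pcdhgb7 and Pcdhga12. Sums over the stretches use the values by which the split was chosen, so they are not a test of it. Pcdhgb8, untested in footprints, is included in the second stretch. The sum of the second stretch was 174 to 184 CPM in control RNA and 198 to 206 CPM in KO RNA, without overlap. Its footprints summed to 268, 281 and 268 CPM in control mice 1, 3 and 9 and to 297, 292 and 284 CPM in KO mice 2, 4 and 10. The sum of the first stretch was 162 to 168 CPM in control RNA and 146 to 167 CPM in KO RNA, where KO mouse 5, the highest at 167 CPM, overlapped the controls. Its footprints summed to 242 to 258 CPM in controls and 213 to 230 CPM in KO mice.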
